A study of Mus musculus with 8 samples.

Results

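The cytoskeleton that ties the contractile apparatus of a muscle fibre to its membrane and its nuclei was followed through 7 genes, Des, Synm, Vim, Plec, Lmna, Syne1 and Syne2, chosen by name from the 19857 genes of the deposited count table. Tongue RNA had been measured in 8 bulk libraries. There were 4 libraries from female A17/+ mice (genotype PABPN1A17/+ in the labels) and 4 from female WT mice, all aged 12 months, with cryosections of the middle of the tongue as the source of RNA. A17/+ mice carry the A17 form of Pabpn1, whose protein binds poly(A) tails in the nucleus, beside a normal copy. They are used to model oculopharyngeal muscular dystrophy, in which eyelid, throat and tongue muscles weaken late in life. The labels name no promoter or Cre that would limit the allele to muscle, and the sections hold epithelium, vessels, nerve and connective tissue beside fibres. The assay, mcSCRB-seq, marks the polyadenylated end of each RNA molecule with a unique molecular identifier (UMI), so that a count is a molecule and not a read.

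Desmin, the product of Des, is the intermediate filament of mature muscle and surrounds the Z-discs, joining neighbouring myofibrils to each other and to the membrane, mitochondria and nuclei. Synemin (Synm) co-assembles with desmin, vimentin (Vim) is the filament of fibroblasts, endothelium and young muscle cells, and plectin (Plec) is a large linker that fastens these filaments to other structures. At the nucleus, lamins A and C (Lmna) form the lamina under the inner membrane, and the giant nesprins 1 and 2 (Syne1, Syne2) span the outer membrane and connect it to the cytoskeleton through SUN proteins.

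Des was higher and Syne2 lower in A17/+ tongue, and the other 5 genes did not pass the test. The edgeR quasi-likelihood test, with p-values adjusted over all 5066 genes tested and a threshold of 0.05, called 1 of the 7 genes higher and 1 lower. All 7 had enough counts to be tested. Among all genes tested, 6.34% were called higher and 2.61% lower, 8.94% in all. The 2 genotypes did not overlap for 2 of the 7 genes, again Des and Syne2, and for 14.6% of all genes tested. The median log2 fold change of the 7 genes was −0.17, against 0.01 over all genes tested. Together the 7 genes took 0.349% to 0.526% of the UMIs in A17/+ libraries and 0.378% to 0.609% in WT libraries, ranges that overlapped. With 1 call in each direction, nothing is read from these counts about the 7 genes as a group.

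The libraries held 395061 to 485326 UMIs in A17/+ and 205696 to 465014 in WT. Transcripts of the mitochondrial genome took 7.24% to 10.98% of the counts in A17/+ and 4.17% to 6.43% in WT, and genes whose longest transcript reaches 5000 nt took 34.0% to 39.9% in A17/+ and 40.6% to 43.0% in WT. With library totals in place of TMM scaling the median log2 fold change of all genes was −0.11, and the split of calls moved from 321 higher and 132 lower to 279 and 289. With a loess trend on transcript length taken out of every library it was 273 and 182. On the first principal component A17/+ 1, at 4.27, and WT 1, at −7.21, were the closest to each other of the 2 genotypes, and WT 1 alone held 923 counts of 6 salivary gland genes, against 0 to 3 in the other WT libraries and 5 to 20 in A17/+. Pabpn1 itself had 22.7 ± 7.37 CPM in A17/+ and 24.8 ± 9.92 CPM in WT (SD, n = 4 each; two-sided exact permutation p = 0.857). Its counts come from the end of the RNA and do not read the altered stretch, so they do not check the genotype.

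Des rose 2.48-fold in A17/+ tongue. Its level (in CPM, counts scaled to a common library size by TMM) was 593, 1251, 836 and 1043 in A17/+ 1 to 4, against 524, 242, 413 and 303 in WT 1 to 4. Every A17/+ library stood above every WT library, and the narrowest gap was between A17/+ 1 and WT 1. The means were 931 ± 282 CPM in A17/+ and 371 ± 124 CPM in WT (SD, n = 4 each), from 1859 UMIs in all. The log2 fold change was 1.31 with a standard error of 0.26 and a 95% interval from 0.76 to 1.86 (edgeR adjusted p = 0.00796). The call held under each of the 20 alternative settings, with log2 fold changes from 1.099 without WT 2 to 1.70 without both libraries numbered 1, and adjusted p of at most 0.0391. In bulk tissue, more muscle in the section, more Des RNA per fibre and Des RNA from cells other than fibres cannot be told apart.

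Des lies on mm10 chromosome 1, from 75360329 to 75368579 on the plus strand, with a single coding transcript of 3028 nt in GENCODE M21. An antisense gene, Gm15179, overlaps it and had 46 counts over the 8 libraries, and the labels do not state whether counting used the strand. The sequences upstream of Des and of Synm are shown because their proteins form filaments together while their RNAs gave different results. Each is the 250 bases before the RefSeq start (GRCm38.p6), written 5′ to 3′ on the gene's strand. Capitals mark the E-box CAGCTG, the GC box GGGCGG, the TATA box TATAAA, the CCAAT box CCAAT, the MEF2 site and the CArG box, each searched on both strands.
Des, plus strand, chr1:75360042-75360291: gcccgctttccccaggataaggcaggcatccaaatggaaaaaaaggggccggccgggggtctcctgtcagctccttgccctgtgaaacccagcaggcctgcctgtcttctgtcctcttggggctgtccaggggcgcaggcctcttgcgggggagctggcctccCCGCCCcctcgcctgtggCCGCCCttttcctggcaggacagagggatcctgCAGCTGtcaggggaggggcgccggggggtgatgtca
Synm, minus strand, chr7:67759743-67759992: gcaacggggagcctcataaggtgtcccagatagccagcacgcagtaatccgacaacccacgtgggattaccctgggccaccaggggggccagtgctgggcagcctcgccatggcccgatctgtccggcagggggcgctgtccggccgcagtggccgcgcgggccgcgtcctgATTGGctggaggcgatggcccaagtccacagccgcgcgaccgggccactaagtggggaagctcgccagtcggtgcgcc
The Des window held 1 CAGCTG, whose first base lies 36 bases before the start, and 2 GC boxes, and the Synm window held 1 CCAAT box. Over 32851 promoter windows of the same length, 13% held CAGCTG, 32.7% GGGCGG, 33.8% CCAAT, 12.4% TATAAA, 2.92% a MEF2 site and 1.47% a CArG box. No motif searched overlapped another in these 2 windows. These matches describe letters only and were not related to the RNA levels.

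Synm, the filament partner of desmin, did not pass. It had 417, 607, 472 and 419 CPM in A17/+ 1 to 4, and 419, 329.7, 508 and 520.1 CPM in WT 1 to 4. The groups overlapped over most of their range. The means were 479 ± 89.3 CPM in A17/+ and 444 ± 88.6 CPM in WT (SD, n = 4 each), with a log2 fold change of 0.11, a 95% interval from −0.27 to 0.50 and an edgeR adjusted p of 0.753. That interval covers folds from 0.828 to 1.41 and so does not reach the size seen for Des. Synm lies on chromosome 7, from 67730160 to 67759742 on the minus strand, and Ttc23, a coding gene on the opposite strand with 54 counts, overlaps it.

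Vim, which in adult tongue marks connective tissue and vessels more than fibres, did not pass either. It had 497, 669, 760.0 and 696 CPM in A17/+ 1 to 4, and 602, 772, 812 and 764 CPM in WT 1 to 4. Only A17/+ 1 lay below all WT libraries, and WT 1 was the lowest of its genotype. The means were 655 ± 112 CPM in A17/+ and 738 ± 93.0 CPM in WT (SD, n = 4 each), with a log2 fold change of −0.17, a 95% interval from −0.52 to 0.18 and an edgeR adjusted p of 0.568. Vim lies on chromosome 2, from 13573927 to 13582826 on the plus strand.

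**Figure D1:**
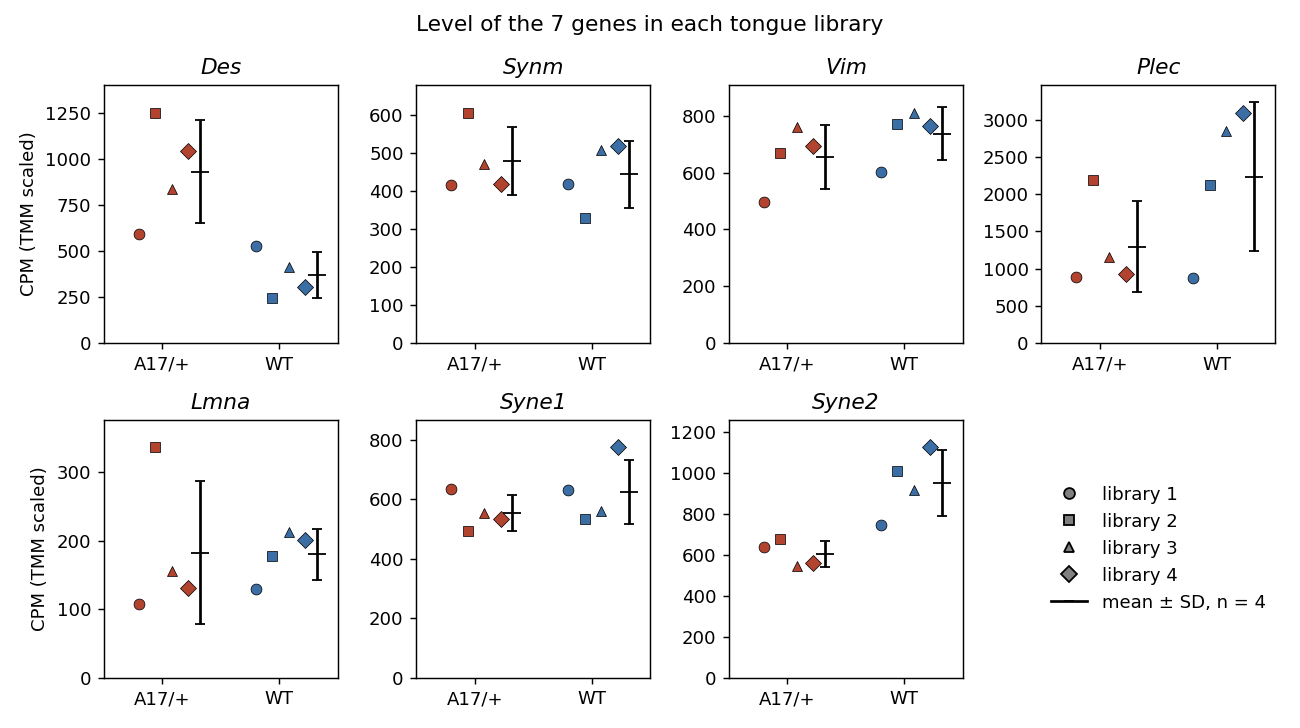
Levels of the 7 genes in CPM with TMM scaling (vertical axis, from 0) in the A17/+ and WT libraries, with a marker shape for each library number and a bar for mean ± SD (n = 4). Des is above and Syne2 below the WT libraries in all 4 A17/+ libraries, and Plec spans 892 to 2194 CPM in A17/+ and 867 to 3099 CPM in WT.

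Plec had the lowest log2 fold change of the 7 genes but did not pass, and its level varied widely between libraries of the same genotype. It had 892, 2194, 1153 and 932 CPM in A17/+ 1 to 4, and 867, 2127, 2853 and 3099 CPM in WT 1 to 4. A17/+ 2 reached the level of WT 2, and WT 1 was the lowest of all 8 libraries. The means were 1293 ± 612 CPM in A17/+ and 2236 ± 1002 CPM in WT (SD, n = 4 each), a log2 fold change of −0.79 with a 95% interval from −1.78 to 0.20 (edgeR adjusted p = 0.305). Without WT 1, Plec passed with a log2 fold change of −1.11 (edgeR adjusted p = 0.0291), in a fit that called 7.01% of all genes lower. Without both libraries numbered 1 it passed with −0.91 (edgeR adjusted p = 0.0142), and 6.73% of genes were called lower. Plec lies on chromosome 15, from 76170974 to 76232574 on the minus strand, and its 21 coding transcripts in the annotation end at 5 separate places. Plectin is made in muscle and also in epithelium, where it anchors keratins, and bulk counts do not separate the 2 tissues.

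Lmna differed little in its mean and was set apart by 1 library. It had 107, 336, 155 and 131 CPM in A17/+ 1 to 4, and 129, 178, 213 and 200.5 CPM in WT 1 to 4. A17/+ 2 was the highest of all 8 libraries and the coefficient of variation was 57.2% in A17/+ and 20.5% in WT, whereas the other 3 A17/+ libraries lay at or below the second lowest WT library. The means were 182 ± 104 CPM in A17/+ and 180.2 ± 37.0 CPM in WT (SD, n = 4 each), with a log2 fold change of 0.03 and a 95% interval from −0.65 to 0.71 (edgeR adjusted p = 0.972). Without A17/+ 2 the log2 fold change was −0.44 (edgeR adjusted p = 0.239). Lmna rested on 481 UMIs, the fewest of the 7 genes, and lies on chromosome 3, from 88480147 to 88509956 on the minus strand. Lamins A and C are splice forms of this gene and were not separated in the counts.

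Syne1, the gene of nesprin 1, did not pass. It had 635, 494, 554 and 533 CPM in A17/+ 1 to 4, and 631, 533, 562 and 775 CPM in WT 1 to 4. The groups overlapped, and WT 4 stood highest. The means were 554 ± 59.5 CPM in A17/+ and 625 ± 108 CPM in WT (SD, n = 4 each), with a log2 fold change of −0.17 and a 95% interval from −0.50 to 0.17 (edgeR adjusted p = 0.558). Syne1 lies on chromosome 10, from 5020917 to 5551482 on the minus strand.

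Syne2, the gene of nesprin 2, fell to 0.640 of its WT level. It had 639.8, 681, 548 and 559 CPM in A17/+ 1 to 4, and 749, 1012, 920.5 and 1127 CPM in WT 1 to 4. Every A17/+ library lay below every WT library, with A17/+ 2 and WT 1 nearest to each other. The means were 607 ± 64.1 CPM in A17/+ and 952 ± 159.6 CPM in WT (SD, n = 4 each), and the log2 fold change was −0.64 with a standard error of 0.16 and a 95% interval from −0.98 to −0.31 (edgeR adjusted p = 0.0183). The call was lost without WT 3 (edgeR adjusted p = 0.0517), without A17/+ 3 (0.0837) and without A17/+ 4 (0.0664), at log2 fold changes of −0.68, −0.60 and −0.63. It was also lost with a transcript length trend removed, where the log2 fold change was −0.46 (edgeR adjusted p = 0.0799) and 3.59% of genes were called lower. Syne2 lies on chromosome 12, from 75818134 to 76110926 on the plus strand.

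The longest annotated transcripts of the 7 genes ran from 2926 nt for Vim and 3028 nt for Des to 15455 nt for Plec, 21704 nt for Syne2 and 27908 nt for Syne1. Of 261 tested genes with a transcript of at least 10000 nt, 3.83% were called lower and 0.383% higher in A17/+, with a median log2 fold change of −0.13. Of 2517 genes of at least 2000 and under 5000 nt, 2.11% were called lower and 5.72% higher, with a median of 0.02. Of 649 genes under 2000 nt, 1.85% were called lower and 23.9% higher, with a median of 0.42, and Cryab (1117 nt), Trim63 (1886 nt), Pmp22 (1822 nt) and Tnnt3 (1079 nt), which are described further on, are among them. Beyond the fit with the length trend removed, the part of transcript length in the levels of Syne2 and Plec was not tested. In that fit Plec had a log2 fold change of −0.59 (edgeR adjusted p = 0.447). Because counts come from RNA ends, short forms of the nesprins that share an end with the giant forms were not separated from them, and the annotation gives 5 separate ends for Syne1 and 6 for Syne2.

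**Figure D2:**
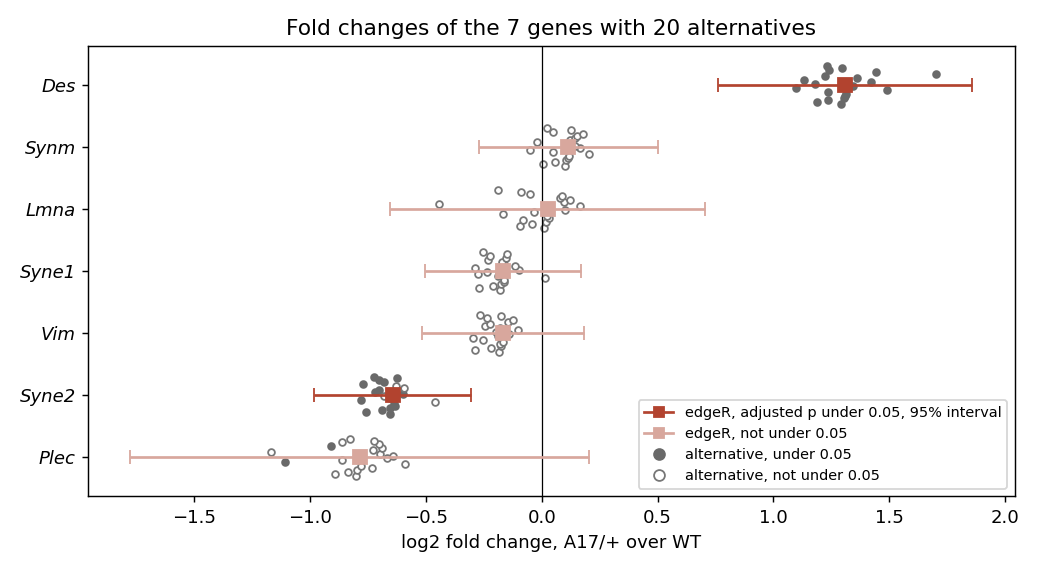
Log2 fold change of A17/+ over WT (horizontal axis) for the 7 genes, with squares and bars for the edgeR value and its 95% interval, and circles for the 20 alternative settings (filled where the adjusted p was under 0.05). All circles of Des are filled, and those of Syne2 are filled except under 4 settings.

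Ratios of 2 genes in the same library do not depend on how libraries are scaled, and 5 such ratios were compared. All 4 ratios to Des were lower on average in A17/+. They share Des as the denominator, so they are not independent of each other or of the rise of Des given above. The log2 ratio of Synm to Des counts was −0.51, −1.04, −0.82 and −1.31 in A17/+ 1 to 4, against −0.32, 0.44, 0.30 and 0.77 in WT 1 to 4. The groups did not overlap, and WT 1 was the only WT library below 0, that is with fewer Synm than Des counts. The difference of means was −1.22, so that Synm counts per Des count were 2.33-fold lower in A17/+ (two-sided exact permutation p = 0.0286, adjusted over the 5 ratios p = 0.0571). The log2 ratio of Vim to Des was −0.25, −0.90, −0.14 and −0.58 in A17/+ 1 to 4, against 0.20, 1.67, 0.97 and 1.32 in WT 1 to 4. Vim was counted less often than Des in all 4 A17/+ libraries and more often in all 4 WT libraries (difference −1.51, exact permutation p = 0.0286, adjusted p = 0.0571). The smallest p that 4 against 4 libraries allow is 0.0286, and none of the 5 ratios passed 0.05 after adjustment.

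The other ratios overlapped between the genotypes. The log2 ratio of Plec to Des averaged 0.42 ± 0.42 in A17/+ and 2.49 ± 1.20 in WT (SD, n = 4 each; difference −2.07, exact permutation p = 0.0571, adjusted p = 0.0571), with WT 1, at 0.73, inside the A17/+ range. That of Lmna to Des averaged −2.44 ± 0.44 in A17/+ and −0.998 ± 0.71 in WT (SD, n = 4 each; difference −1.44, exact permutation p = 0.0571, adjusted p = 0.0571). Between the nesprins, the log2 ratio of Syne2 to Syne1 was 0.01, 0.46, −0.01 and 0.07 in A17/+ 1 to 4, against 0.25, 0.92, 0.71 and 0.54 in WT 1 to 4. The counts of the 2 nesprin genes were nearly equal in 3 of the 4 A17/+ libraries, and A17/+ 2 lay inside the WT range (difference −0.47, exact permutation p = 0.0571, adjusted p = 0.0571).

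**Figure D3:**
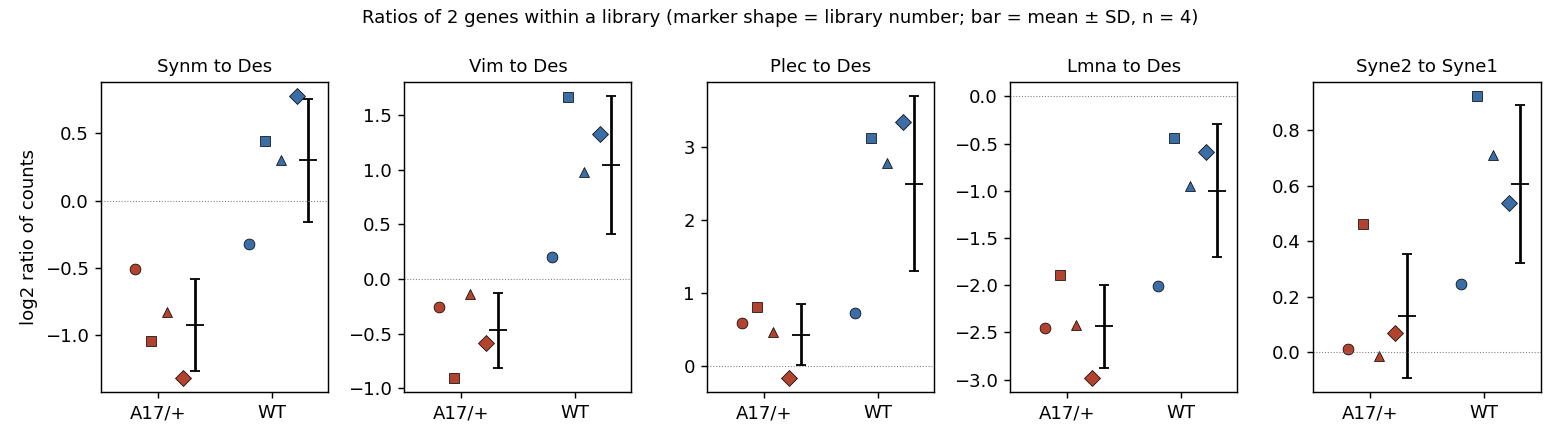
Log2 ratio of the counts of 2 genes within a library (vertical axis, a scale of its own in each panel) in A17/+ and WT, with a marker shape for each library number, a bar for mean ± SD (n = 4) and a dotted line at 0 (equal counts). The ratios of Synm and of Vim to Des do not overlap between the genotypes, and WT 1 is the WT library nearest to A17/+ in all 5 panels.

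Genes of the same structures were read from 6 lists, of whose 81 genes 53 were tested. Of these 53, 5 rose and 4 fell, and their median log2 fold change was −0.09. Over all genes tested, 6.34% were called higher and 2.61% lower, and the counts of each list stand beside these shares. Among intermediate filaments other than the 7 genes, 2 of 11 were tested and 0 passed. Sync, which encodes syncoilin, a filament protein of the muscle membrane and neuromuscular junction, had 42.0 ± 10.5 CPM in A17/+ and 27.6 ± 10.9 CPM in WT (SD, n = 4 each; log2 fold change 0.67, edgeR adjusted p = 0.245). Nes, the filament gene of immature muscle and nerve cells, had a log2 fold change of −0.16 (edgeR adjusted p = 0.771). The simple keratins Krt18 and Krt19 had 2 counts each over the 8 libraries.

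Plakins, the linker family to which plectin belongs, had 5 of 6 genes tested, of which 0 rose and 3 fell, with a median log2 fold change of −0.80. All 3 that fell encode plakins of epithelial junctions and of the cornified envelope. Dsp (desmoplakin) had 2434, 3389, 2678 and 2503 CPM in A17/+ 1 to 4, and 4214, 5204, 5597 and 4849 CPM in WT 1 to 4. The groups were far apart, and the log2 fold change was −0.85 (edgeR adjusted p = 0.00553). Ppl (periplakin) fell by 0.80 on the log2 scale (edgeR adjusted p = 0.00728). Evpl (envoplakin) fell by 0.85 (edgeR adjusted p = 0.0213), a call that was lost without WT 2, WT 3, A17/+ 3 or A17/+ 4, at edgeR adjusted p from 0.0563 to 0.0794. The plakins that muscle also makes, Macf1 and Dst, had −0.30 and −0.25 (edgeR adjusted p = 0.198 and 0.317).

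Desmin and costamere partners had 22 of 26 genes tested, of which 4 rose and 0 fell, with a median of 0.23. Costameres are the sites where Z-discs are tied to the membrane. Ldb3, a Z-disc protein also called ZASP or Cypher, had 214, 389.8, 328 and 425 CPM in A17/+ 1 to 4, and 131, 93.7, 105 and 108 CPM in WT 1 to 4. All A17/+ libraries stood above WT, with a log2 fold change of 1.61 (edgeR adjusted p = 0.00192). Nrap, which links actin to the membrane at myotendinous junctions, had 566, 531, 519.8 and 633 CPM in A17/+ 1 to 4 and 381, 223, 298 and 238 CPM in WT 1 to 4, again without overlap (log2 fold change 0.96, edgeR adjusted p = 0.00486). Cryab, the small heat shock protein that protects desmin filaments, rose by 1.60 on the log2 scale (edgeR adjusted p = 0.00964), and its adjusted p was 0.0517 without WT 3. With the length trend removed its log2 fold change was 0.89. Trim63, the ubiquitin ligase MuRF1 of muscle atrophy, rose by 1.21 (edgeR adjusted p = 0.0260), and its adjusted p was 0.0593 to 0.0785 without WT 2, WT 3, WT 4, A17/+ 3 or A17/+ 4. With the length trend removed its log2 fold change was 0.95 (edgeR adjusted p = 0.0604), and the call was lost under 9 of the 20 alternatives in all. The other 18 genes, among them those of filamin C, vinculin, talin and dystrophin, did not pass.

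Partners of the nesprins and lamins at the nuclear envelope had 11 of 19 genes tested, of which 1 rose and 1 fell, with a median of −0.13. Syne3, the gene of nesprin 3, which binds plectin at the outer nuclear membrane, had 37.9, 42.4, 28.3 and 39.9 CPM in A17/+ 1 to 4, and 71.3, 80.8, 81.2 and 97.5 CPM in WT 1 to 4. Every A17/+ library lay below every WT library, at 10 to 17 counts in A17/+ and 18 to 32 in WT, and the log2 fold change was −1.12 (edgeR adjusted p = 0.0112). After thinning all libraries to the smallest depth it was −0.77 (edgeR adjusted p = 0.210). Mlip, a muscle protein that binds lamins A and C, had 86.9, 84.7, 79.1 and 91.2 CPM in A17/+ 1 to 4, and 55.7, 48.5, 37.2 and 43.3 CPM in WT 1 to 4. These groups did not overlap either, with a log2 fold change of 0.86 (edgeR adjusted p = 0.0330), but the call was lost under 13 of the 20 alternatives, among them leaving out any library other than WT 1 or A17/+ 2. There its adjusted p was 0.0540 to 0.117. The SUN genes Sun1 and Sun2, whose proteins hold the nesprins from within the envelope, had −0.13 and 0.28 (edgeR adjusted p = 0.846 and 0.612).

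Of 5 genes that process lamin A, only Icmt, the methyltransferase that acts on prelamin A, was tested (log2 fold change −0.57, edgeR adjusted p = 0.274). Of 14 genes of nuclear positioning, 12 were tested and 0 passed, with a median of −0.17. Summed over all 14, they had 3113 to 3351 CPM in A17/+ and 3385 to 3919 CPM in WT, without overlap. Of all single genes tested, 14.6% did not overlap either. The list holds long transcripts, such as that of Akap9 (13123 nt), and the part of transcript length in this sum was not tested. Akap9, which anchors microtubules, had −0.42 (edgeR adjusted p = 0.0894), and Fhod3, a formin of the sarcomere, had 0.84 (edgeR adjusted p = 0.137). Without WT 1 both passed, Akap9 with −0.54 (edgeR adjusted p = 0.0201) and Fhod3 with 1.19 (edgeR adjusted p = 0.0475).

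**Figure D4:**
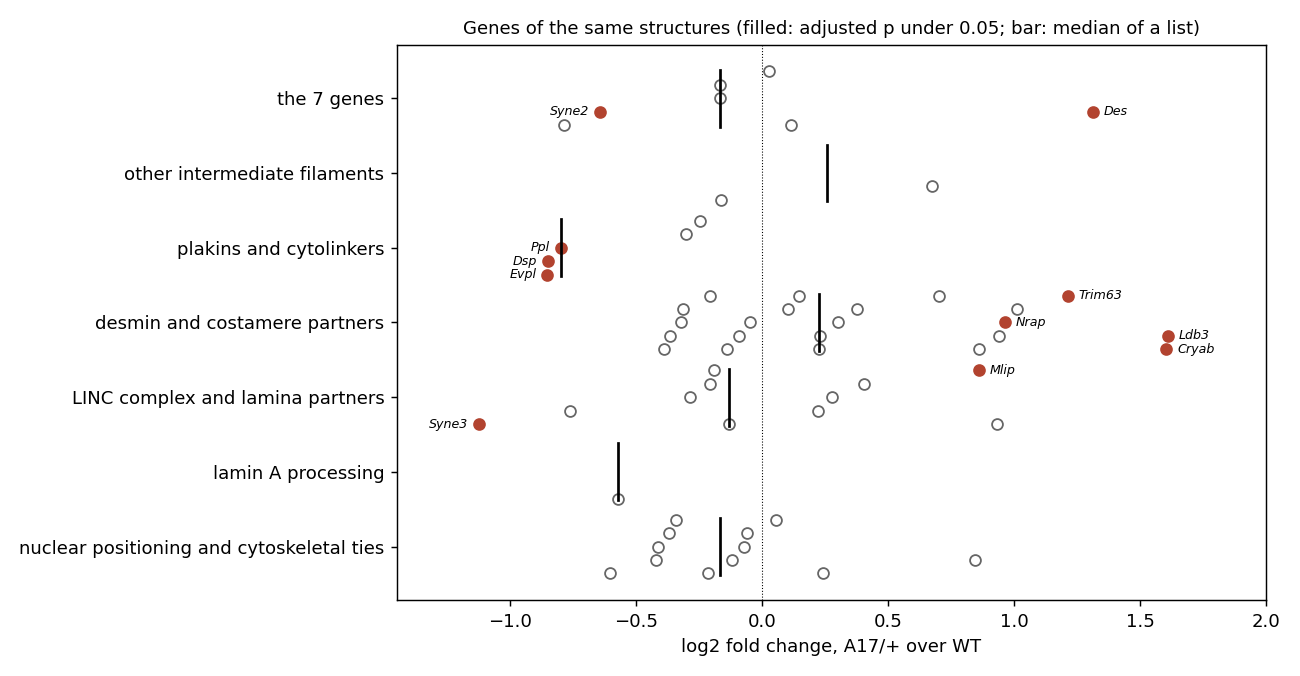
Log2 fold change of A17/+ over WT (horizontal axis) for each tested gene of the 7 and of the 6 lists, filled and named where the edgeR adjusted p was under 0.05, with a bar at the median of each row (vertical spread within a row has no meaning). The 3 plakins called lie at −0.85 to −0.80, and the 4 desmin partners called at 0.96 to 1.61.

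Markers of the cell types that could supply these RNAs were summed per library. Over all genes tested, 6.34% were called higher and 2.61% lower, and 14.6% did not overlap between the genotypes. Defining genes of skeletal muscle were abundant, with 120051 to 141828 CPM for 15 genes in A17/+ and 90193 to 122795 CPM in WT, and 9 of 15 were higher and 0 lower. The 9 higher ran in log2 fold change from 0.64 (Mylpf, edgeR adjusted p = 0.0483) to 1.68 (Acta1, edgeR adjusted p = 0.00187). Their longest transcripts had 700 nt (Tnnc2) to 3013 nt (Actn2). The 2 with most counts, Ttn and Myh4, had log2 fold changes of 0.13 and −0.01 (edgeR adjusted p = 0.693 and 0.983). Of the 6 not called, Tnni2 has 895 nt, and the others run from 6016 nt (Myh4) to 106824 nt (Ttn). The part of transcript length in this split was not tested. Des thus rose beside part of the fibre genes, and the part of fibre content in its rise was not tested. Genes of regenerating muscle and satellite cells, whose cells hold Des, Vim and Nes, summed to 53.7 to 113 CPM in A17/+ and 51.7 to 146 CPM in WT. Of them Myf5 had 3, Mymk 1 and Myh3 4 counts over all 8 libraries, and the 2 tested, Ncam1 and Myh8, had log2 fold changes of 0.31 and 0.08 (edgeR adjusted p = 0.659 and 0.951).

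The cell types that make most vimentin gave sums of different kinds. Fibroblast genes summed to 2412 to 3496 CPM in A17/+ and 2601 to 3841 CPM in WT, with 3 of 12 higher and 0 lower. The 3 higher were Dcn, Col3a1 and Fbn1 (fibrillin), with log2 fold changes of 2.24, 1.31 and 0.82 (edgeR adjusted p = 0.0123, 0.0129 and 0.0340). Fn1 (fibronectin) and Fbn1 had the most counts of the list, and Fn1 had −0.54 (edgeR adjusted p = 0.0697). Fn1 alone averaged 1374 CPM in A17/+ and 1996 CPM in WT, of mean sums of 2995 and 2997 CPM. The median log2 fold change of the 12 genes was 0.25. The sum thus leans on Fn1, and its overlap does not stand for the other genes of the list. The Fbn1 call was lost under 9 of the 20 alternatives, 6 of them leaving out WT 2, WT 3, WT 4, A17/+ 2, A17/+ 3 or A17/+ 4. Fn1 passed as lower under 6 of the 20, among them without WT 1 (−0.68, edgeR adjusted p = 0.0125). Endothelial genes summed to 611 to 683 CPM in A17/+ and 575 to 607 CPM in WT, with 0 of 7 tested genes passing, among them Flt1 at −0.00 and Tek at −0.29 (edgeR adjusted p = 0.9996 and 0.449). Macrophage genes summed to 409.6 to 493 CPM in A17/+ and 139 to 397 CPM in WT, where WT 1 was the highest, and 0 of 3 passed with all libraries. Lyz2 (lysozyme) had a log2 fold change of 0.93 (edgeR adjusted p = 0.153), which was 1.66 (edgeR adjusted p = 0.000867) without WT 1, and it passed under 4 of the 20 alternatives. Cd163, a scavenger receptor gene, had 0.34 (edgeR adjusted p = 0.615). Smooth muscle genes summed to 633 to 861 CPM in A17/+ and 621 to 786 CPM in WT, with 1 of 4 higher. The 2 with most counts, Myh11 and Mylk, had −0.17 and −0.15 (edgeR adjusted p = 0.564 and 0.753). The other 2 tested, Acta2 and Smtn, had 1.13 and 0.97 (edgeR adjusted p = 0.0169 and 0.0742). The part of smooth muscle in the level of Des was not tested. Schwann cell genes summed to 178 to 234 CPM in A17/+ and 47.4 to 92.1 CPM in WT, without overlap, and 1 of 2 tested genes was higher. Of these myelin protein genes Mbp had a log2 fold change of 0.81 (edgeR adjusted p = 0.109) and Pmp22 rose by 1.74 (edgeR adjusted p = 0.00623). The part of these cells in the level of Vim was not tested.

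Tongue epithelium genes, from the tissue that shares plectin and the epithelial plakins, summed to 9283 to 17929 CPM in A17/+ and 12532 to 13759 CPM in WT. Of 13 genes 0 were higher and 3 lower. The lowest sum was in A17/+ 1 and the highest in A17/+ 2. A17/+ 2 was also the A17/+ library with the highest Plec and Lmna, and likewise with the highest Des, Synm and Syne2. The most abundant keratins, Krt13 and Krt4, had log2 fold changes of 0.68 and 0.38 (edgeR adjusted p = 0.0501 and 0.227). Krt13 passed as higher under 7 of the 20 alternatives, among them leaving out WT 1 (0.73, edgeR adjusted p = 0.0246) or A17/+ 1 (0.79, edgeR adjusted p = 0.00454), and Krt4 passed without both (0.56, edgeR adjusted p = 0.0334). The 3 lower genes were Perp, Krt76 and Dsg3, with log2 fold changes of −0.72, −0.72 and −0.69 (edgeR adjusted p = 0.00796, 0.0132 and 0.0423). Perp and Dsg3 encode proteins of desmosomes, as does Dsp, and Krt76 a keratin. Markers of epithelium thus lay on both sides, and those that fell did so beside Dsp, Ppl and Evpl. The part of epithelium in the levels of the plakins, Plec and Lmna was not tested.

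**Figure D5:**
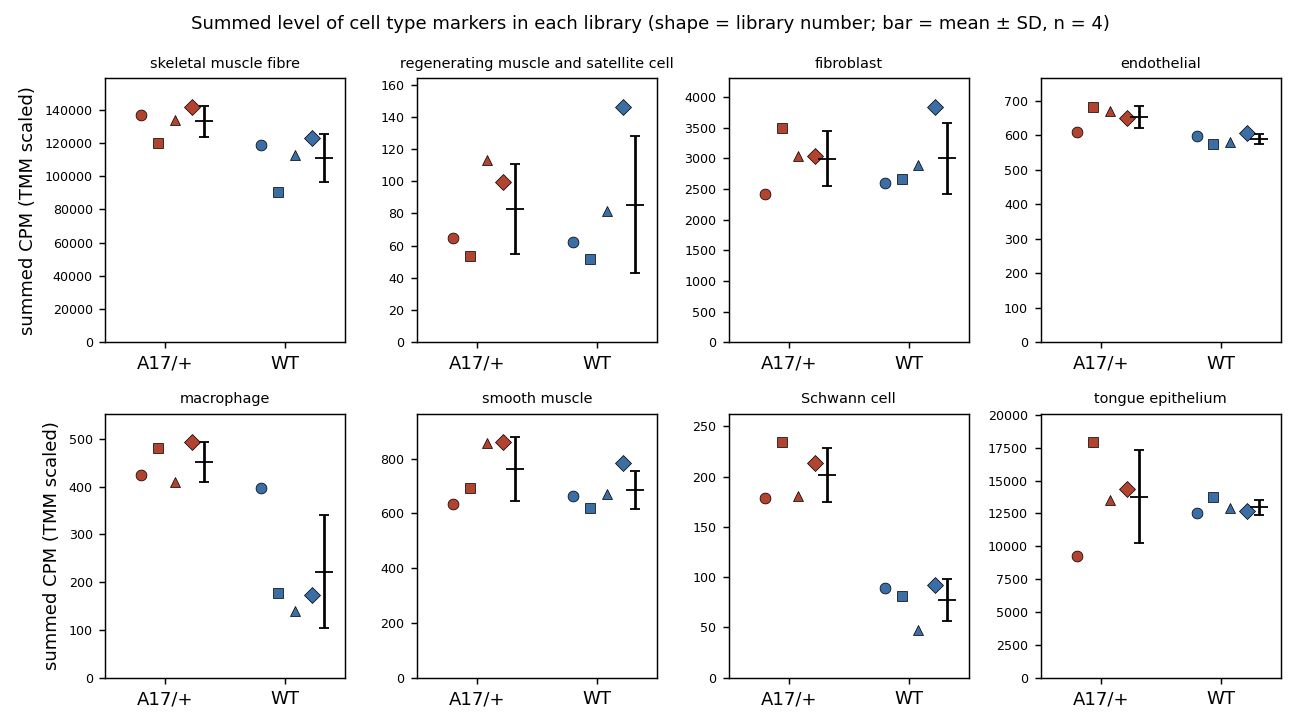
Summed CPM with TMM scaling (vertical axis, from 0) of the marker genes of 8 cell types in each A17/+ and WT library, with a marker shape for each library number and a bar for mean ± SD (n = 4). Endothelial, macrophage and Schwann cell sums do not overlap between the genotypes, and the other 5 do.

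The genes whose pattern over the 8 libraries was most like that of each of the 7 were named by the root mean square difference of log2 CPM, with each gene centred on its own mean. For Des they were H19 (0.21), Tnnt3 (0.21) and Fh1 (0.22), against a median of 0.85 over all tested genes. Since the measure includes the difference between genotypes, a likeness in fold change and in high and low libraries follows from the choice, and no test is given. The log2 fold changes were 1.13 for H19, 1.18 for Tnnt3 and 1.55 for Fh1. Tnnt3 lost its call with the length trend removed (edgeR adjusted p = 0.156), and H19 and Fh1 kept theirs under all 20 alternatives. For Syne2 the nearest genes were Lyg1 (0.09), Bptf (0.09) and Lmo7 (0.09), against a median of 0.50, with log2 fold changes of −0.70, −0.60 and −0.59. For Plec they were Kmt2d (0.16), R3hcc1 (0.16) and Naalad2 (0.18), against a median of 0.81. Their log2 fold changes were −0.65, −0.70 and −0.63.

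For the remaining genes the nearest were Top1, Ubac1 and Eef1d to Synm (0.13 each), Tgfbr2, Myh11 and Cul1 to Vim (0.09 to 0.12), Rbm8a, Fem1a and Max to Lmna (0.17 to 0.18), and Lrpprc, Morc2a and Rnf217 to Syne1 (0.09 to 0.10). Among the 7 genes themselves the closest patterns were those of Synm and Vim and of Synm and Syne1 (0.31 each), and the most distant those of Des and Plec (1.29) and of Des and Syne2 (1.11).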

How the data were processed

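The authors deposited raw counts per Ensembl gene for the 8 libraries, and log2 values per gene in 1 file per library. The submitters' processing notes name cutadapt 2.10, STAR 2.7.5a, UMI-tools 1.1.1, HTSeq and mm10, and settings, strand and annotation release are not given in the sources used here. The deposited log2 values, for 10709 genes, served in 1 alternative only. Symbols, positions and lengths came from GENCODE M21, which matched 19677 of 19857 identifiers. Promoters came from RefSeq, where Plec was not matched.

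Genes passed filterByExpr (minimum count 10, minimum total 15). Counts were TMM scaled and fitted with robust edgeR 4.0.16 (R 4.3.3), the sole model term being genotype, and Benjamini-Hochberg adjustment. The fit was tested on simulated data. Single values were compared by exact permutation over 70 assignments (scipy 1.17.1), with 1 CPM added to Pabpn1 and 0.5 to each count in a ratio. DESeq2 1.42.0 and limma 3.58.1 were alternatives. The labels give 4 numbered libraries per genotype, and p-values weigh the difference between genotypes against the spread between these libraries. The titles do not state that each library is a separate mouse. Low counts carry counting error.

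The 7 genes and all lists were chosen with earlier results of these data known. The text names the 7 genes and, per pathway list, up to 4 members past the threshold, or the 2 with the smallest p where none passed. It also names the 2 markers with most counts per cell type and the 3 nearest patterns per gene, without predicted genes. Krt18, Krt19, Macf1, Dst, Sun1, Sun2, Myf5, Mymk, Myh3, Perp, Krt76 and Dsg3 were named after their values were seen. So were Acta1, Mylpf, Tnnc2, Actn2, Tnni2, Dcn, Col3a1, Esam, Kdr, Pecam1, Egfl7, Cdh5, Acta2 and Smtn. Genes named in that way were not followed through the alternative settings.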

Additional observations from a re-analysis of the deposited data

Results flagged for a closer look

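A library stood far from the other 3 of its genotype for 9 of 148 groups of values examined, and chance gives about 1 in 20. Among WT libraries, WT 1 was far above the others for Lipf (932 CPM), Dmbt1 (533 CPM), the summed salivary gland markers (2057 CPM), Lyz2 (294 CPM) and the summed macrophage markers (397 CPM). WT 1 was far below the other WT libraries for Lmo7 (628 CPM), whose pattern was near that of Syne2. WT 4 was above the other WT libraries for Tek (157 CPM). A17/+ 2 was above the other A17/+ libraries for Naalad2 (84.7 CPM), near Plec in pattern, and Bptf (333 CPM), near Syne2 in pattern. None of the 7 genes and none of the 5 ratios had such a library within either genotype.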

How the results depend on the processing

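Des kept its call and direction under all 20 alternatives, Syne2 under 16, and Synm, Vim, Lmna and Syne1 stayed uncalled under all 20. No called gene among those named by the rules given above changed direction. Those rules used p-values, counts and patterns from these same data. The 453 genes called (321 higher, 132 lower) became 853 (615 and 238) with no filter, 265 (198 and 67) after thinning, 233 (152 and 81) with limma-voom, 797 (538 and 259) with limma-trend on the deposited log2 values, and 1025 (695 and 330) without both libraries numbered 1. With library totals only, 289 were lower. Leaving out 1 library gave 210 to 890 called, 172 to 586 higher and 38 to 383 lower. The count moved most without WT 1 (890), A17/+ 1 (771), A17/+ 3 (247), A17/+ 4 (232) and WT 3 (210), and the lower count also without WT 2 (69) and A17/+ 2 (226). Without 1 library the difference in log2 ratio ran from −1.42 to −1.06 for Synm to Des, −1.79 to −1.30 for Vim to Des, −2.66 to −1.79 for Plec to Des, −1.78 to −1.25 for Lmna to Des and −0.59 to −0.37 for Syne2 to Syne1. That of Pabpn1 ran from −0.35 to 0.12. Libraries share only a number: the deviations of same-numbered ones from their group means correlated at 0.004 for number 1, 0.07 for 2, −0.10 for 3 and −0.16 for 4, and no library correlated best with its own number. With the replicate number as a block, 410 genes were called (311 higher, 99 lower), and Des (1.31, edgeR adjusted p = 0.0148) and Syne2 (−0.64, edgeR adjusted p = 0.0403) were kept. The sign-flip test of the ratios over 4 pairs cannot go below 0.125. The cause of these changes was not tested. After thinning to the smallest depth, Syne3, Mlip and Lmo7 lost their calls. A gene below the filter was not tested.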
